A study of Mus musculus with 6 samples.

Results

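The 9 genes described here encode the troponins and tropomyosins of skeletal muscle. They were chosen by name, as the rows for *Tnni1*, *Tnni2*, *Tnnt1*, *Tnnt3*, *Tnnc1*, *Tnnc2*, *Tpm1*, *Tpm2* and *Tpm3* among the 16247 genes of the deposited normalized table, and each was joined to its raw counts by its Ensembl identifier. All 9 were found, and all 9 passed the filter on low counts. The rule itself used no measured value, though the genes were chosen with earlier results of these data known.

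Troponin and tropomyosin make the thin filament of muscle sensitive to calcium. Tropomyosin lies along actin and covers the sites to which myosin binds, and troponin sits on it at regular intervals. In the troponin complex, troponin C binds calcium, troponin I inhibits the contact of actin and myosin, and troponin T holds the complex on tropomyosin. Slow-twitch and fast-twitch fibers use separate genes for each subunit, so that the slow set (*Tnni1*, *Tnnt1*, *Tnnc1*) and the fast set (*Tnni2*, *Tnnt3*, *Tnnc2*) mark the 2 kinds of fiber. *Tnnc1* is also the troponin C of the heart. Of the tropomyosins, *Tpm3* encodes the alpha form of slow fibers, *Tpm1* the alpha form of fast fibers and the heart, and *Tpm2* the beta form, which both kinds of fiber contain.

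The study sequenced poly-A RNA from the soleus, a calf muscle rich in slow fibers, of 3 mice heterozygous for a *Mustn1* KO-first allele (HET) and 3 wild-type littermates (WT). All 6 mice were C57BL6/N, were 8 weeks old and are labelled male. The KO-first allele is designed to trap the *Mustn1* transcript in a lacZ and neomycin cassette in every cell of the body, and the HET mice keep 1 intact copy. The study reports that this trap is not fully efficient under certain conditions. After injury of 1 leg, *Mustn1* transcript rose in the other leg of KO-first mice. Each library came from the soleus of 1 mouse, the reads were single and 50 bases long, and HET was compared with WT to see what the partial loss of *Mustn1* changes in muscle RNA.

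The libraries held 26790075 to 50368796 reads on genes, and the 9 genes took 4.20 to 4.56% of them, with 48175 to 597351 reads per gene and mouse. *Mustn1* was at 14.2 ± 2.33 CPM in HET and 27.5 ± 3.89 in WT (SD, n = 3 each), where CPM is reads per 1000000 reads with edgeR's TMM scaling factors. Its log2 fold change was -0.96 (SE 0.15, edgeR adjusted p = 0.0452), the only gene lower in HET past the threshold of 0.05. Slow fiber RNA was present in every library, with *Myh7*, the slow myosin heavy chain, at 13642 to 14766 CPM. Each library held 3858 to 9154 reads on *Xist* and 0 to 12 reads in total on *Ddx3y*, *Kdm5d*, *Uty* and *Eif2s3y*, which goes against the labelled sex in the same way for all 6 mice.

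A slow gene and its fast partner can be compared only if 50-base reads tell them apart, so the closest coding stretches of each pair are shown here. Coding sequences were taken from the GENCODE M21 transcripts of the build of the count table, GRCm38, and the 50-base window with the fewest differences was found for each pair, read 5′ to 3′ along the transcript, with the differing bases in capitals. For troponin I, the inhibitory subunit, the windows lay in exon 8 of *Tnni1* (chr1:135808729-135808778, plus strand) and exon 7 of *Tnni2* (chr7:142444002-142444051, plus strand), and differed at 5 bases.
*Tnni1*: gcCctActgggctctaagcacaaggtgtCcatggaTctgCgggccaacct
*Tnni2*: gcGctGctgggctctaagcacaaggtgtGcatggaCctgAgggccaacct

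For troponin T, the windows crossed from exon 8 to exon 9 of *Tnnt1* (chr7:4509607-4509972, minus strand, intron included) and from exon 9 to exon 10 of *Tnnt3* (chr7:142511353-142511493, plus strand, intron included), and differed at 9 bases.
*Tnnt1*: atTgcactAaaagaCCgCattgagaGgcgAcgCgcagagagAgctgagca
*Tnnt3*: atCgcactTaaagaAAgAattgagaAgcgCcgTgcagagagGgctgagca

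For troponin C, the calcium-binding subunit, they crossed from exon 5 to exon 6 of both *Tnnc1* (chr14:31211371-31211509, plus strand, intron included) and *Tnnc2* (chr2:164777330-164777517, minus strand, intron included), and differed at 7 bases.
*Tnnc1*: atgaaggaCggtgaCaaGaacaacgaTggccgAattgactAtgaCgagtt
*Tnnc2*: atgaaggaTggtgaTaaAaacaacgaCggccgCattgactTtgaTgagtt

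For the alpha tropomyosins, they lay in exon 8 of *Tpm3* (chr3:90091021-90091070, plus strand) and exon 9 of *Tpm1* (chr9:67029685-67029734, minus strand), and differed at 3 bases.
*Tpm3*: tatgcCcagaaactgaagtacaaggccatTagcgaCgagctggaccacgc
*Tpm1*: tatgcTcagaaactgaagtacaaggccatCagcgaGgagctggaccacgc

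No 50-base word of the coding transcripts of *Tnni1*, *Tnni2*, *Tnnt1*, *Tnnt3*, *Tnnc1*, *Tnnc2*, *Tpm1* or *Tpm2* occurred in a transcript of another gene. The longest run of identical coding bases was 22 for troponin I, 16 for troponin T, 21 for troponin C and 23 for *Tpm3* and *Tpm1*. *Tpm2* and *Tpm1* shared a run of 35 bases. *Tpm3* was the exception, with 40.0% of its 50-base words also in transcripts of other genes, all of them in *Tpm3-rs7*, a copy on chromosome 14. Reads that align to several places were left out of the counts, so the count of *Tpm3* can be too low by the reads from these words. *Tpm3-rs7* itself held 424 to 1250 reads per library, at most 1.20% of those on *Tpm3*.

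The genes lie apart in the genome except for 1 pair of members. *Tnni2* (chromosome 7, 142441808 to 142444410, plus strand) and *Tnnt3* (142498836 to 142516009, plus strand) are 54.4 kb apart. *Tnnt1*, also on chromosome 7 (4504570 to 4516382, minus strand), lies 1.92 kb from the cardiac troponin I gene *Tnni3*, and *Tnni1* (chromosome 1, 135779434 to 135810989, plus strand) lies 25.4 kb from the cardiac troponin T gene *Tnnt2*. *Tnnc2* is on chromosome 2 (164777161 to 164779967, minus strand), *Tpm3* on chromosome 3 (90072649 to 90100902, plus strand), *Tpm2* on chromosome 4 (43514711 to 43523765, minus strand) and *Tpm1* on chromosome 9 (67022590 to 67049406, minus strand). *Tnnc1* (31208312 to 31211729, plus strand) is on chromosome 14, the chromosome of *Mustn1*, 327 kb further along. *Tnnt3*, *Tnnc1* and *Tnnc2* each overlap another tested gene, *Prr33*, *Nisch* and *Ube2c*, on the opposite strand, and the reads were counted by strand.

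The levels of different genes can be set side by side only per length. Reads per kilobase and per 1000000 reads on genes (RPKM) were made with the exon length in the count table, with no scaling factor, and averaged over the 6 mice. *Tnnt3*, the fast troponin T, was the highest of the 9 at 5825 RPKM (range 5603 to 6182) and was ranked 9 among all genes. *Tpm2* followed at 4157 RPKM (4008 to 4287) and *Tnnc2*, the fast troponin C, at 4077 RPKM (3459 to 4464), and the ranges of these neighbours in the order overlapped. *Tnni2* had 2145 RPKM (1900 to 2268) and *Tnnc1* 2102 RPKM (1862 to 2350), which also overlapped. *Tnnt1* had 1600 RPKM (1379 to 1716) and *Tpm1* 885 RPKM (841 to 919). *Tnni1*, the slow troponin I, had 511 RPKM (462 to 568) and *Tpm3* 432 RPKM (390 to 488), again with overlapping ranges.

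**Figure D1:**
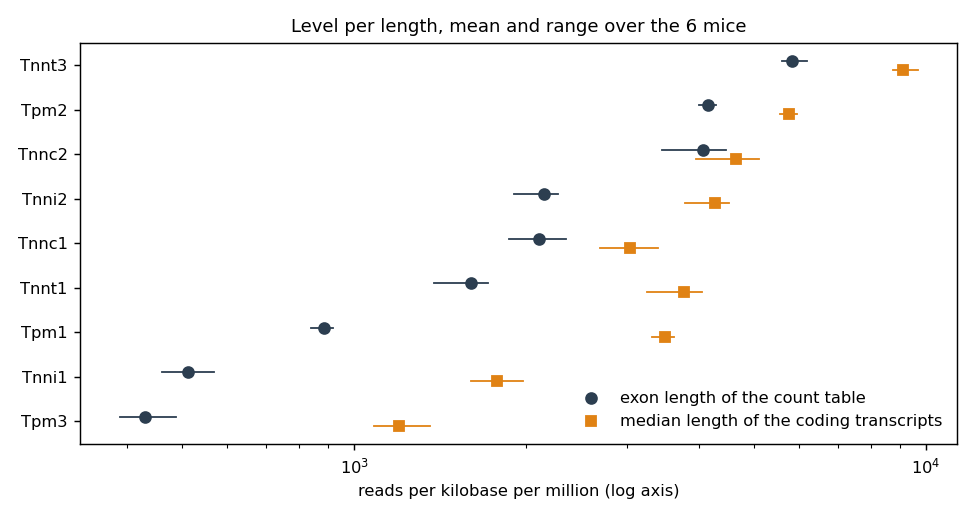
Level per length of the 9 genes on a log axis, in RPKM, as the mean (mark) and the lowest to highest of the 6 mice (line). Dark circles use the exon length of the count table, where *Tnnt3* leads at 5825 RPKM and *Tpm3* is lowest at 432, and orange squares use the median length of the coding transcripts, where the same 2 genes stand at 9102 and 1199.

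This order depends on the length used. The exon length counts every exon of every transcript once, and it was 3600 bases for *Tnni1*, 6085 for *Tpm3* and 6485 for *Tpm1*, genes with alternative exons, against 800 for *Tnnc2*. With the median length of each gene's basic coding transcripts in its place, a setting chosen after the data were seen, the level of *Tpm1* was 3495 RPKM, that of *Tnnt1* 3776 RPKM and that of *Tnnc1* 3035 RPKM, so that *Tnnc1* stood below both. The 3 fast troponins and *Tpm2* remained the 4 highest of the 9 genes with either length, and *Tnni1* and *Tpm3* the lowest.

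By counted reads per length, the fast member of every pair was the higher one. For tropomyosin, reads from the words that *Tpm3* shares with *Tpm3-rs7* are missing. The slow share of tropomyosin and the ratio of *Tpm3* to *Tpm1* can therefore be too low. By exon length, the slow gene made up 18.6% ± 0.73 of troponin I, 21.1% ± 1.41 of troponin T, 33.6% ± 2.29 of troponin C and 32.8% ± 1.29 of the *Tpm3* and *Tpm1* sum in WT (SD, n = 3). By transcript length the slow shares in WT were 28.5% ± 0.98 for troponin I, 28.7% ± 1.74 for troponin T, 39.0% ± 2.45 for troponin C and 25.6% ± 1.11 for tropomyosin. The slow share of troponin I therefore moved by more than 1.5 times with the length, while every share stayed under 50% in all 6 mice with both lengths. The summed level of the 2 genes of a subunit was 2720 ± 112 RPKM for troponin I, 7572 ± 432 for troponin T and 6438 ± 317 for troponin C in WT, with the exon length.

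No troponin or tropomyosin gene changed with genotype past the threshold in edgeR's quasi-likelihood test. All 9 log2 fold changes were below 0, between -0.05 for *Tnni1* and -0.21 for *Tnnc2*, that is, estimates between 3.62 and 13.6% lower in HET. The adjusted p-values were 0.699 to 0.954, and no member had an unadjusted p under 0.05. DESeq2 and limma-voom also called 0 of the 9. Among all 14696 genes tested, 0.150% passed the threshold in either direction and 0.00680% passed it lower in HET, 7.76% had an unadjusted p under 0.05 in either direction, and 54.4% had a log2 fold change below 0.

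The calcium-binding subunit of fast fibers, *Tnnc2*, had the lowest fold change of the members with all mice and TMM factors. It was at 3028, 3421 and 2650 CPM in HET replicates 1 to 3 and at 3427, 3659 and 3445 CPM in WT replicates 1 to 3. HET replicate 3 was the lowest mouse, and HET replicate 2 came just under the lowest WT mouse. The log2 fold change was -0.21 (SE 0.10, edgeR adjusted p = 0.699), with a 95% interval from 26.3% lower to 1.25% higher in HET. It was -0.12 without HET replicate 3, -0.29 without HET replicate 2, -0.14 with library size alone and -0.13 with a gene length trend removed. *Tnnc2* was not the lowest member in every alternative. *Tnni2* was at -0.14 with the length trend removed, *Tnnt3* at -0.14 without HET replicate 3 and *Tnnc1* at -0.28 without HET replicate 1.

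Its partner *Tnnc1*, the slow and cardiac troponin C, was at 2369, 1970 and 1856 CPM in HET and at 2476, 2453 and 2029 CPM in WT. HET replicate 1 lay among the WT mice, and WT replicate 3 among the HET mice, so the genotypes overlapped. The log2 fold change was -0.17 (SE 0.12, edgeR adjusted p = 0.850) with all mice, -0.28 (adjusted p = 0.573) without HET replicate 1, -0.25 without WT replicate 3 and -0.092 without HET replicate 3, over a range of -0.28 to -0.09 among the 17 alternatives computed.

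*Tnni2*, the inhibitory subunit of fast fibers, was at 3154, 3224 and 2723 CPM in HET and at 3478, 3478 and 3256 CPM in WT, with no overlap. Its log2 fold change was -0.17 (SE 0.09, edgeR adjusted p = 0.781), and -0.090 without HET replicate 3. *Tnni1*, its slow partner, was at 1981, 1795 and 1650 CPM in HET and at 1947, 1987 and 1696 CPM in WT. The 2 genotypes of *Tnni1* overlapped, with HET replicate 1 next to the highest WT mouse, and its log2 fold change of -0.05 (SE 0.10, edgeR adjusted p = 0.954) was the one nearest to 0 among the members. It was 0.023 with library size alone, 0.013 without HET replicate 3 and -0.12 without HET replicate 1 or WT replicate 3.

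*Tnnt3*, the fast troponin T, was at 8684, 8855 and 8740 CPM in HET and at 9905, 10028 and 9211 CPM in WT. The HET mice lay close together, with an SD of 87.2 CPM against 440 in WT, and all 3 lay below all WT mice. The log2 fold change was -0.15 (SE 0.08, edgeR adjusted p = 0.767), from -0.19 to -0.13 with each mouse left out and -0.073 with library size alone. The slow gene *Tnnt1* was at 3662, 3208 and 3430 CPM in HET and at 3910, 3868 and 3102 CPM in WT, where WT replicate 3 was the lowest of the 6 mice. Its log2 fold change was -0.08 (SE 0.11, edgeR adjusted p = 0.933). Single mice moved it by over 1.5 times either way, to -0.18 without WT replicate 3 and to -0.019 without HET replicate 2, -0.022 without WT replicate 1 and -0.032 without WT replicate 2.

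The estimates of the tropomyosins lay nearer to 0 than those of the fast troponins, a difference that was not tested. *Tpm2*, the beta form, was the member with the most reads, at 11731, 12450 and 11164 CPM in HET and at 12730, 12473 and 12102 CPM in WT, with a log2 fold change of -0.08 (SE 0.08, edgeR adjusted p = 0.909). *Tpm1*, the fast alpha form, was at 5552, 5630 and 5634 CPM in HET and at 6184, 5906 and 5567 CPM in WT, and its log2 fold change of -0.07 (SE 0.08) became 0.0064 with library size alone. *Tpm3*, the slow alpha form, was at 2876, 2410 and 2378 CPM in HET and at 2807, 2881 and 2420 CPM in WT, with a log2 fold change of -0.08 (SE 0.11). With each mouse left out, *Tpm3* ran from -0.18 without HET replicate 1 to -0.028 without HET replicate 3, *Tpm1* from -0.11 without WT replicate 3 to -0.034 without WT replicate 1, and *Tpm2* from -0.11 without HET replicate 2 to -0.037 without HET replicate 3. All 3 overlapped between genotypes. With TMM factors, the 95% intervals of the single genes ran at most to 26.3% lower and 12.5% higher in HET, so changes beyond these sizes lay outside them. The estimates moved with the scaling, and no intervals were made for other scaling factors.

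**Figure D2:**
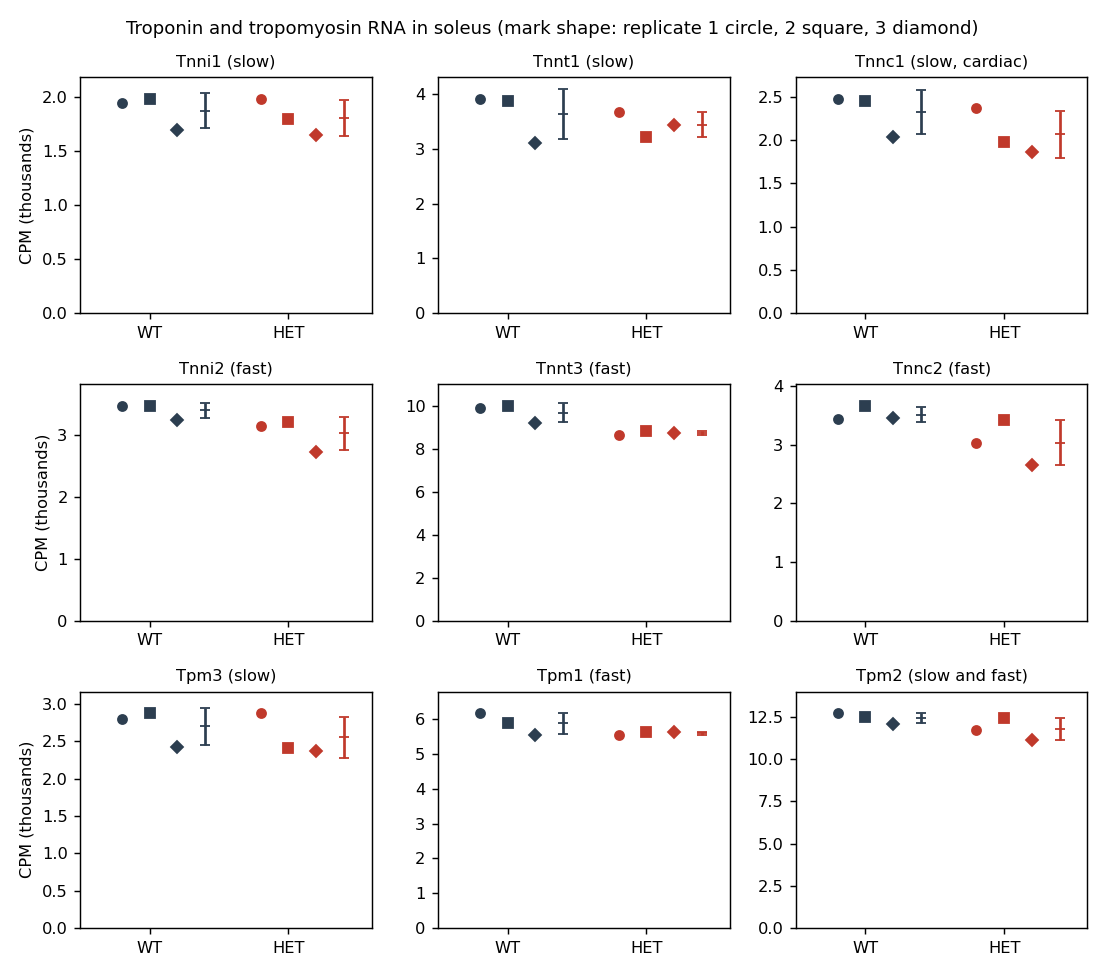
CPM with TMM factors, in units of 1000, of the 9 genes in each mouse, with WT in dark and HET in red, mark shapes for replicates 1 to 3, and the mean with its SD (bar, n = 3) at the right of each group. Every vertical axis starts at 0. *Tnni2*, *Tnnt3* and *Tnnc2* are the 3 panels in which no HET mouse reaches a WT mouse, and for *Tnnc2* the gap is between 3421 and 3427 CPM.

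The 3 members without overlap were the 3 fast troponins, each lower in HET. Among all genes tested, 6.02% were lower in HET without overlap. This separation turned on the scaling. On the deposited normalized values, *Tnni2* and *Tnnt3* did not overlap and *Tnnc2* did, and with library size alone 0 of the 9 were without overlap and 7 of the 9 had the lower mean in HET. The median log2 fold change of the 9 was -0.08 with TMM factors and -0.004 with library size alone, where that of all genes tested was -0.02 and 0.06. The genes tested summed to 956779 to 997652 CPM in HET and 1019820 to 1036740 CPM in WT with TMM factors.

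Log2 fold changes of this size and sign were common among other abundant genes. Of the 91 other genes with a mean of at least 1000 CPM, a group chosen after the data were seen, 75, or 82.4%, had a log2 fold change below 0, their median was -0.07, and 13 were lower in HET without overlap. For the 9 members the median was -0.08, and 3 were without overlap. The 91 genes include other fiber and thin filament genes, such as *Myh7*, *Acta1* and *Neb*, so this group is not separate from muscle fibers.

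The slow-to-fast ratio within a mouse does not depend on the scaling factor of its library. The log2 ratio of *Tnni1* to *Tnni2* per length was -1.94, -2.11 and -1.99 in HET and -2.10, -2.07 and -2.21 in WT. HET replicates 1 and 3 were the 2 highest mice and WT replicate 3 the lowest, with a mean difference, HET minus WT, of 0.12 (two-sided exact permutation test, p = 0.3). With 3 mice against 3, this test cannot give a p under 0.1. The ratio of *Tnnt1* to *Tnnt3* was -1.72, -1.94 and -1.83 in HET and -1.82, -1.85 and -2.05 in WT, a difference of 0.08 (exact p = 0.5) that was 0.0045 without WT replicate 3, 0.022 without HET replicate 1 and 0.13 without HET replicate 2. The ratio of *Tnnc1* to *Tnnc2* was -0.73, -1.18 and -0.89 in HET and -0.85, -0.96 and -1.14 in WT, a difference of 0.05 (exact p = 0.8). The ratio of *Tpm3* to *Tpm1* was -0.86, -1.13 and -1.15 in HET and -1.05, -0.94 and -1.11 in WT, a difference of -0.01 (exact p = 0.9). Each count joins all transcripts of a gene, with 16 basic coding transcripts for *Tpm1* and 5 for *Tpm3*. The tropomyosin ratio was therefore not limited to the forms of muscle fibers. Adjusted over the 4 pairs by Benjamini-Hochberg, each exact p was 0.9.

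The genotypes overlapped in all 4 pairs, and HET replicate 1 had the highest slow-to-fast ratio in each of them. The lowest was WT replicate 3 for troponins I and T, HET replicate 2 for troponin C and HET replicate 3 for tropomyosin. As shares by exon length, the slow gene made up 19.9% of troponin I in HET and 18.6% in WT, 22.0% and 21.1% of troponin T, 34.4% and 33.6% of troponin C, and 32.6% and 32.8% of the *Tpm3* and *Tpm1* sum. The log2 ratio of *Tpm2* to *Tpm1* was 2.23 ± 0.08 in HET and 2.24 ± 0.04 in WT (SD, n = 3).

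**Figure D3:**
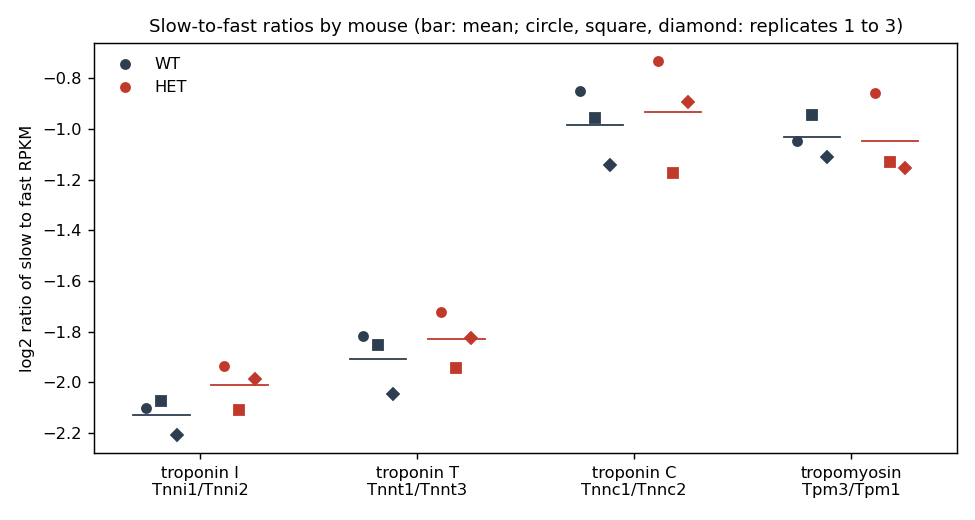
Log2 ratio of slow to fast RPKM in each mouse for the 4 pairs, with WT in dark, HET in red, a bar for each mean and mark shapes for replicates 1 to 3. All ratios lie below 0, the genotypes overlap in every pair, and HET replicate 1 (red circle) is highest in each, from -1.94 for troponin I to -0.73 for troponin C.

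The slow and fast fibers were also read from lists of their other genes. Of 14 slow fiber genes, 10 had a log2 fold change below 0 and 0 were called by edgeR, DESeq2 or limma-voom, with 2 at an unadjusted edgeR p under 0.05 and a median of -0.06. They ran from *Pln*, the inhibitor of the slow calcium pump, at -0.53 (SE 0.21) to *Myl6b*, a myosin light chain, at 0.25 (SE 0.20). *Pln* was scarce, with a mean of 3.41 CPM in HET and 4.87 CPM in WT, against 214 and 180 CPM for *Myl6b*. Of 16 fast fiber genes, 15 were below 0 and 0 were called by any of the 3 tools, with 1 at an unadjusted p under 0.05 and a median of -0.20. All genes tested had a median of -0.02. The fast fiber genes ran from *Myh4*, the heavy chain of the fastest fibers (type IIb), at -0.91 (SE 1.50, edgeR adjusted p = 0.948) to *Myh2*, that of type IIa, at 0.14 (SE 0.09).

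*Myh4* varied far more between mice than any troponin. It was at 44.7, 2042 and 167 CPM in HET and at 1470, 1774 and 976 CPM in WT, so that HET replicate 1 was 31.5-fold below the WT mean while HET replicate 2 was the highest of all 6 mice. In HET replicate 1 the fast troponins were 1.08-fold (*Tnni2*), 1.12-fold (*Tnnt3*) and 1.16-fold (*Tnnc2*) below their WT means. *Mybpc2*, *Actn3* and *Pvalb*, named after their values were seen, encode the fast myosin-binding protein C, a Z-disc protein of fast fibers and the calcium buffer parvalbumin, and in that mouse they were 4.04-fold, 2.90-fold and 2.71-fold below the WT mean. Other fast genes of that mouse, also named after their values were seen, lay nearer to it, with *Myh1* 1.21-fold, *Myl1* 1.14-fold and *Mylpf* 1.11-fold below and *Myh2* at the WT mean. In HET replicate 2, *Mybpc2*, *Actn3* and *Pvalb* were at -0.19, -0.04 and -0.38 relative to the WT mean on the log2 scale. There *Tnni2*, *Tnnt3* and *Tnnc2* were at -0.08, -0.13 and -0.04. In HET replicate 3, *Mybpc2*, *Actn3* and *Pvalb* were at -0.92, -0.78 and -0.91, and *Tnni2*, *Tnnt3* and *Tnnc2* at -0.32, -0.15 and -0.41. In that mouse *Myh1*, *Myl1* and *Mylpf* were at -0.13, -0.15 and -0.23, and *Myh2* at 0.11. The part of *Myh4*-rich fibers in the fast troponin values was not tested, and in whole muscle fewer fibers of a type and less RNA per fiber cannot be told apart.

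**Figure D4:**
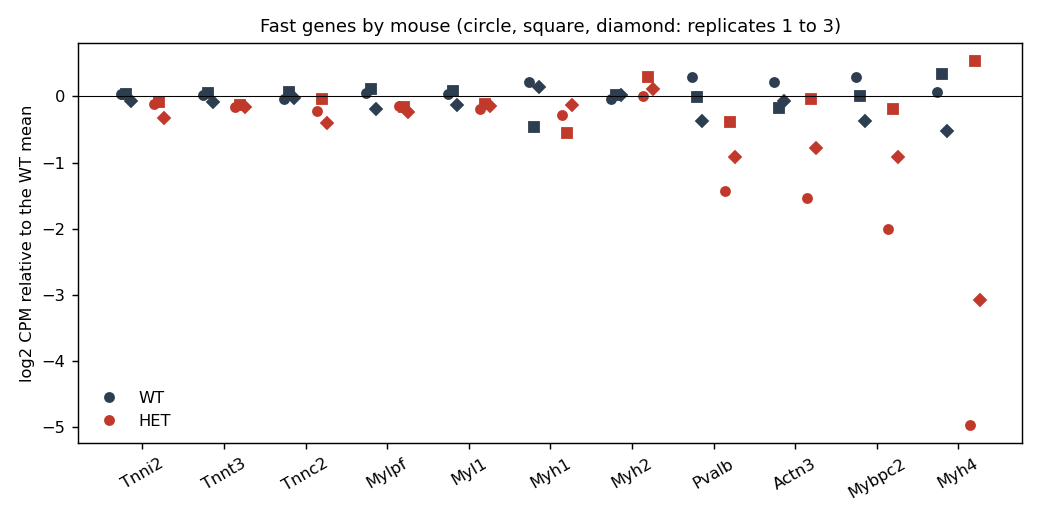
Log2 CPM of 11 fast fiber genes in each mouse relative to the WT mean, with WT in dark, HET in red and mark shapes for replicates 1 to 3. The fast troponins *Tnni2*, *Tnnt3* and *Tnnc2* stay between -0.41 and 0.06, while *Myh4* reaches -4.98 in HET replicate 1 and -3.07 in HET replicate 3 and is at 0.54 in HET replicate 2.

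The rest of the thin filament and its partner proteins gave similar estimates. The list of 16 genes held actins, nebulin, leiomodins, tropomodulins, capping proteins and partners, some of them proteins of the Z-disc. Of these 16, 14 were below 0, 0 were called by edgeR, DESeq2 or limma-voom, 1 had an unadjusted edgeR p under 0.05, and the median was -0.08. *Tmod4*, a tropomodulin that caps the pointed end of the filament, was lowest at -0.24 (SE 0.08, edgeR adjusted p = 0.418), with 290, 278 and 272 CPM in HET and 349, 311 and 333 CPM in WT. *Klhl40*, which stabilizes nebulin, was highest at 0.11 (SE 0.09). *Acta1*, the skeletal actin, was at -0.06 (SE 0.10) and *Neb*, nebulin, at -0.08 (SE 0.08), both named after their values were seen.

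The troponins and tropomyosin outside the 9 were scarce. *Tnnt2*, the cardiac and embryonic troponin T, was at 10.3, 8.46 and 7.93 CPM in HET and at 9.67, 11.2 and 10.1 CPM in WT. *Tnni3*, the cardiac troponin I, was at 0.638 to 1.10 CPM over the 6 mice. *Tpm4*, a tropomyosin of many non-muscle cells, was at 56.3, 48.8 and 85.2 CPM in HET and at 50.7, 64.8 and 49.5 CPM in WT. None of these 3 was called by edgeR, DESeq2 or limma-voom, and 0 had an unadjusted edgeR p under 0.05. Of 7 genes of embryonic or regenerating fibers, 5 were above 0 and 0 were called by the 3 tools, with 0 at an unadjusted p under 0.05. They ran from *Pax7*, the satellite cell factor, at -0.22 (SE 0.13) to *Chrng*, the embryonic acetylcholine receptor subunit, at 0.63 (SE 0.44). *Chrng* was barely present, with a mean of 0.624 CPM in HET and 0.423 CPM in WT.

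Markers of macrophages, fibroblasts and tendon lay on the other side of 0 from the troponins. All 10 macrophage markers were above 0, with a median log2 fold change of 1.40, and 5 were called by edgeR (*C1qa*, *C1qb*, *Lyz2*, *Adgre1* and *Csf1r*), 7 by DESeq2 and 2 by limma-voom. Their summed level was 86.1 to 124 CPM in HET and 49.3 to 55.0 CPM in WT. All 9 fibroblast markers were above 0, with 1 called by edgeR (*Pi16*), 4 by DESeq2 and 0 by limma-voom, a median of 0.83 and sums of 1899 to 2954 CPM in HET against 918 to 1464 in WT. All 8 tendon markers were above 0, with 0 called by edgeR, 6 at an unadjusted p under 0.05, 1 called by DESeq2 and 0 by limma-voom, a median of 1.09 and sums of 372 to 664 CPM against 120 to 300. Smooth muscle markers (5 of 9 above 0, median 0.01) and endothelial markers (2 of 5 above 0, median -0.06) had 0 called by any of the 3 tools and 0 at an unadjusted edgeR p under 0.05. The part of these cells in the troponin values was not tested.

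**Figure D5:**
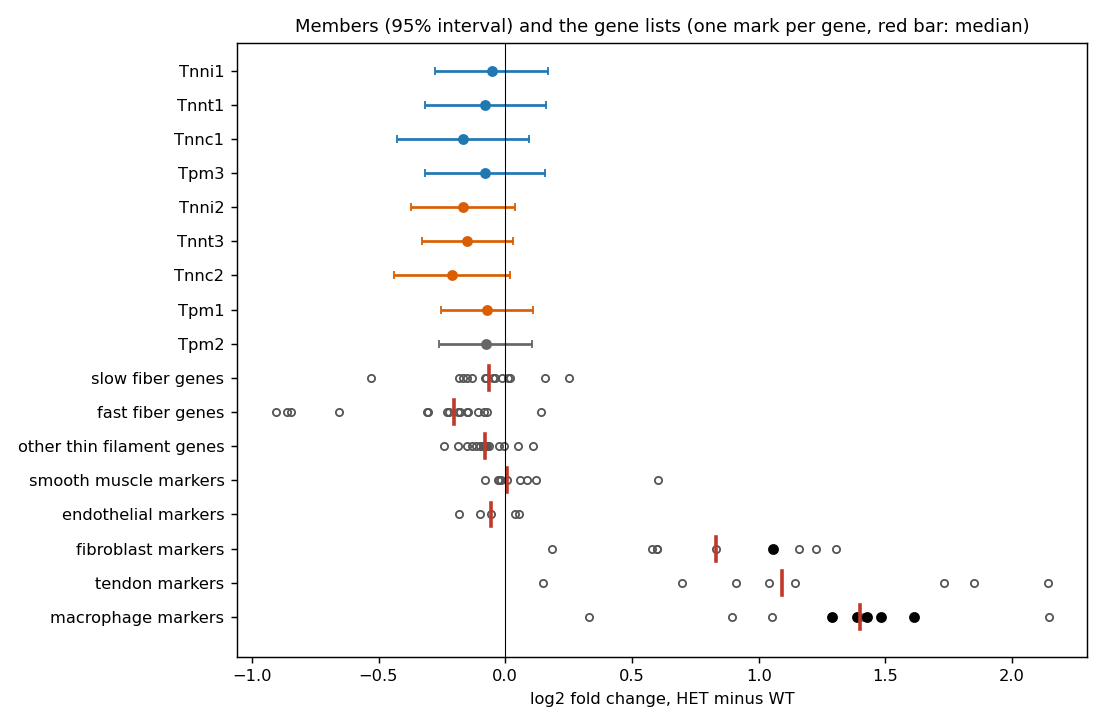
Log2 fold change, HET minus WT, of the 9 members with 95% intervals (slow in blue, fast in orange, *Tpm2* in grey), and of each gene of 8 lists, with a red bar for the list's median and filled marks for genes past the adjusted threshold. All 9 members lie between -0.21 and -0.05, and the lists of macrophage, tendon and fibroblast markers have medians of 1.40, 1.09 and 0.83.

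The genes around the members were also read. Of 33 tested genes within 50 kb of a member, 19 were below 0 and 14 above, and 1 passed the threshold. This was *Lsp1*, an actin-binding protein of leukocytes, which lies between *Tnni2* and *Tnnt3*. It was at 28.0, 25.2 and 31.8 CPM in HET and at 15.3, 17.7 and 16.1 CPM in WT, with a log2 fold change of 0.79 (SE 0.12, edgeR adjusted p = 0.0452), opposite in direction to both flanking fast troponin genes.

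*Tnnc1* is the member nearest to the targeted gene, and 8 of the 15 genes between *Mustn1* and *Tnnc1* were tested. Of these, 5 were below 0 and 3 above, and 0 were called by edgeR. They ran from *Nek4*, a kinase, at -0.24 (SE 0.15) to *Stab1*, a scavenger receptor of macrophages and endothelium, at 0.34 (SE 0.11, edgeR adjusted p = 0.385), and *Stab1* was the gene among them with an unadjusted p under 0.05, at 0.0124.

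Genes whose level followed that of the troponins from mouse to mouse were sought among 1325 genes with a mean of at least 100 CPM, by the root mean square difference of their log2 deviations over the 6 mice. For the mean profile of *Tnni1*, *Tnnt1* and *Tnnc1*, the nearest was *Myl2*, the slow and cardiac myosin light chain, at 0.043, followed by *Eef1b2*, *Ddx6*, *Rab18* and *Pdlim5* at 0.050 to 0.053. That profile was 0.10, -0.10 and -0.14 in HET and 0.14, 0.14 and -0.13 in WT, so that WT replicate 3 lay with HET replicates 2 and 3. For *Tnni2*, *Tnnt3* and *Tnnc2*, the nearest were *Park7*, *Klhl24*, *Acat1*, *Tspan7* and *Ndufb9* at 0.038 to 0.044. The profile of these 3 fast troponins was -0.07, 0.01 and -0.20 in HET and 0.10, 0.14 and 0.03 in WT, lowest in HET replicate 3. The profiles use CPM with TMM factors. The genes named are the first by rank, and whether their distances are smaller than for any other profile was not tested.

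Promoters of 7 of the 9 members were found in the RefSeq promoter table of GRCm38.p6, all but those of *Tnni2* and *Tnnt3*. Troponin C is the troponin whose slow and fast promoters were both there, and the 250 bases before each start site are printed, 5′ to 3′ along the gene, from chr14:31208062-31208311 on the plus strand for *Tnnc1* and from chr2:164779735-164779984 on the minus strand for *Tnnc2*. Capitals mark E-boxes (CANNTG, the motif of MyoD-family factors) and the MCAT motif of TEAD factors (CATTCC, or GGAATG on the other strand).
*Tnnc1*: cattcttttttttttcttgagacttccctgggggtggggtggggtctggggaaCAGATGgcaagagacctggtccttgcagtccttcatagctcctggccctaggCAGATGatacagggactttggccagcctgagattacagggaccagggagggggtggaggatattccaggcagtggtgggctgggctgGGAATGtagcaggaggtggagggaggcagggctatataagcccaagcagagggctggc
*Tnnc2*: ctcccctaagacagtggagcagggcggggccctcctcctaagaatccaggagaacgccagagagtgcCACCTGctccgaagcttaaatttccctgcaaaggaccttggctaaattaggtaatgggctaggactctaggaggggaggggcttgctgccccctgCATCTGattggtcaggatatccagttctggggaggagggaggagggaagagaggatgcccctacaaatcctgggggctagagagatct

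Over the 300 bases of the table, which end 50 bases after the start site, both strands were searched. *Tnnc1* held 2 E-boxes and 1 MCAT motif, and *Tnnc2* held 2 E-boxes and no MCAT motif. Each of the 9 promoter entries of the 7 members held at least 1 E-box, as did 72.3% of all 32851 promoters. The MCAT motif was in *Tnnc1* and *Tpm1* and in 14.7% of all promoters, and TATAAA was in *Tnnt1* and in 13.6%. A MEF2 motif was in no member promoter and in 3.19% of all, and an SRF motif (CArG box) in none and in 1.63%. A match is a run of letters and was not tested as a binding site.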

How the data were processed

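Poly-A RNA of the soleus of 3 HET and 3 WT mice was sequenced. The authors aligned the reads with STAR 2.7.3a to GRCm38.p6 and deposited raw counts per gene made with featureCounts 2.0.3, counted by strand without reads that align to several places. The authors also deposited a normalized signal, the raw count divided by a DESeq2 size factor between 0.773 and 1.42. Another deposited file holds the authors' DESeq2 fold changes and p-values for HET against WT and was not used. Of the columns of values per mouse, 0 were left without a sample.

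Raw counts were analysed in R 4.3.3 with edgeR 4.0.16 (filterByExpr with a minimum count of 10, TMM factors, robust quasi-likelihood test of genotype, two-sided, Benjamini-Hochberg adjustment over the 14696 genes tested, threshold 0.05). The standard error is the log2 fold change over the square root of F, and 95% intervals use the test's degrees of freedom. DESeq2 1.42.0, limma 3.58.1 (voom), other scaling factors and filters, non-robust dispersion, a gene length trend, a replicate block and each mouse left out were alternatives. Ratios were tested with SciPy 1.17.1 by exact permutation over 20 regroupings. Python 3.11.15 was used for the tables and figures. On simulated counts with 200 changed genes among 14704, the edgeR steps made 9 false calls. They recovered 94 of 98 genes changed by 1 on the log2 scale and 102 of 102 changed by 2. The simulation gave every gene the same dispersion and used changes larger than the estimates of the members. It checked the steps only, and does not give the power for smaller changes or for genes that vary more between mice.

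The 9 members and the 10 gene lists were chosen with earlier results of these data known. Besides the members, the genes named are checks of the labels, the called, highest and lowest genes of each list, the 5 nearest profiles, and genes within 50 kb or between *Mustn1* and *Tnnc1*, with exceptions stated. Replicate mice of a genotype differed by a chi-square per gene of 15.0 to 42.8 over all genes, where counting error alone gives 1.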

Additional observations from a re-analysis of the deposited data

How the results depend on the processing

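None of the 153 log2 fold changes of the 9 members over 17 alternatives passed the threshold. Of these, 3 changed sign, *Tnni1* to 0.023 with library size alone and 0.013 without HET replicate 3 (from -0.12 to 0.013 with each mouse left out), and *Tpm1* to 0.0064 with library size alone. An unadjusted p under 0.05 arose in 3 alternatives for *Tnnc2* and in 1 each for *Tnni2* and *Tnnc1*. The slow-to-fast differences changed sign in 5 of 32 values, all with a mouse left out. The 32 include the replicate block and the ratio of the deposited normalized values, which return the main difference by construction and could not change its sign. The differences ran from 0.076 to 0.17 for troponin I, from 0.0045 to 0.13 for troponin T, from -0.051 to 0.17 for troponin C and from -0.11 to 0.039 for tropomyosin. The medians of slow fiber genes and endothelial markers became 0.013 and 0.019 with library size alone. The counts of genes higher and lower in HET, 21 and 1, were 386 and 18 without a filter, 204 and 9 with DESeq2, 3 and 0 with limma-voom, 6 and 0 with non-robust dispersion, and 0 to 77 and 0 to 6 with each mouse left out, 0 and 0 without HET replicate 1 or 3 or WT replicate 1 or 2, and 77 and 6 without WT replicate 3. The 8 called genes named kept their direction in every alternative and passed the threshold in 10 to 13 of 17. With the replicate block the counts were 114 and 2, and 128 and 2 when the length trend was removed as well. Same-numbered mice deviated from their group means with correlations of 0.20, -0.0058 and -0.035, against -0.14 to 0.13 for differently numbered mice. The 0.20, of the mice numbered 1, was the highest of all. The labels do not say which mice shared a litter, so the numbers were not taken as pairs. The block changed no call among the members. The causes of these shifts were not tested.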
